A study of Sus scrofa with 13 samples.

Results

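Antigen presentation genes of the pig were followed in bulk RNA sequencing of liver, and were chosen by symbol. Of 10 listed genes, 8 had a row in the table of 35670 genes, with 4 in the MHC class I pathway (B2M, TAP1, TAP2 and TAPBP) and 4 in the class II pathway (SLA-DMA, SLA-DMB, CD74 and CIITA). All 8 passed the filter on low counts. SLA-DRA and SLA-DRB1 had no row under these symbols, and a row named HLA-DRA, which is the human name of the DR alpha chain gene, is described beside the members and is not counted among them, because no table used here pairs it with the pig gene.

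MHC class I molecules are carried by nearly all nucleated cells and show peptides from inside the cell to cytotoxic T cells. TAP1 and TAP2 form the transporter that brings these peptides into the endoplasmic reticulum, TAPBP encodes tapasin, which holds the transporter and an empty class I molecule together, and B2M encodes the light chain of every class I molecule. Class II molecules show peptides from the endosome to helper T cells and are made mainly by macrophages, dendritic cells and B cells. CIITA is the master coactivator of class II genes, CD74 encodes the invariant chain that guards the class II groove, SLA-DMA and SLA-DMB encode the 2 chains of the molecule that exchanges its remnant for peptide, and DR is a class II molecule at the cell surface. In the liver, Kupffer cells and sinusoidal endothelium take part in both pathways.

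The 13 libraries came from livers of female Yorkshire pigs in 4 groups, and each column of the table was 1 library. Baseline (n = 2, libraries 1a and 2) was biopsied before any ischemia and received no cells. Ischemic controls (n = 3) had 45 min of complete vascular exclusion of the liver and then 6 h of reperfusion, and no cells were given. The arterial (n = 4) and portal (n = 4) groups had the same ischemia and reperfusion and were given 3 M (M for mega) human bone marrow mesenchymal stromal cells (BM-MSCs) per kg, by way of the hepatic artery and of the portal vein, respectively. The infused cells were human, so that the transplant crossed species, and all 3 groups at 6 h shared the clamping and the operation. At 6 h each library of a group stood for its own pig, as the study describes its samples. The labels do not say which lobe was sampled, nor whether the baseline biopsies came from pigs that also gave a library at 6 h. Counts on genes were between 18975413 and 35949178 per library (median 30260803). Summed hepatocyte markers (8 genes such as ALB and APOA1) reached between 33700 and 138000 CPM (counts relative to the TMM-scaled library total) in the 4 groups, and none of them was at 0 in any library.

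Of the 11 livers at 6 h, 4 stood apart from the others on the first principal component of the 500 most variable genes, which held 62.5% of the variance. These were control 2, arterial 1, portal 1 and portal 4, with scores between 23.1 and 59.7, against -28.5 to -9.89 in the other 7. Between 7.4% and 20.8% of the tested genes were at 0 in them, against 1.78% to 9.19% in the other 9 libraries, baseline included. Control 2, portal 1 and portal 4 also had the lowest total counts of all libraries, at 18975413, 20563848 and 21444917. Arterial 1 was not shallow, at 30260803. The part of depth in these shares and in the split was not tested. No member was among the 500 genes. Results below are therefore also given without these 4 libraries.

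Values of single genes are normalized counts, that is, counts divided by DESeq2's size factors. They serve to compare 1 gene between libraries, since no gene length was used, and a level of one gene is not set against another gene's. Group differences are log2 fold changes with their standard error (SE) from edgeR's quasi-likelihood test over 16481 genes, with p-values adjusted over all of them by the Benjamini-Hochberg method. Groups are said not to overlap where every library of one lies above every library of the other. In these bulk samples, fewer cells of a type and less RNA per cell cannot be told apart.

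The first question was whether ischemia and reperfusion went with other levels of these genes. In ischemic controls the light chain gene B2M, tapasin and the invariant chain were higher than baseline in every library, with mean levels at 24170.2, 3868 and 20767 against 10172, 1875 and 5888. The peptide transporter, the DM genes, CIITA and HLA-DRA overlapped between the groups. The adjusted test called 0 of 8 members, and 0% of the 16481 genes.

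B2M was at 12333 and 8010.0 in the baseline libraries and at 12503, 37309 and 22698.5 in ischemic controls. The lowest control lay just above the higher baseline library. On the log2 scale B2M differed by 1.22 (SE 0.58, adjusted p = 0.978, edgeR). RefSeq places 2 B2M genes side by side on chromosome 1 of Sscrofa11.1 (126837721 to 126844043 and 126865767 to 126878501), so reads of the other copy could have been split from or joined to this row, and its level is uncertain. The study traced the infused cells by qPCR of human B2M. Whether reads of these cells reached the row named B2M was not tested. Infused livers ranged from 8161 to 34251. Livers that received no human cells ranged from 8010.0 to 12333 at baseline and from 12503 to 37309 in ischemic controls. These ranges cannot decide that question, because livers without human cells also differed among themselves.

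TAPBP (chr7:29663491-29673453) was at 1959 and 1790.2 at baseline and at 2134, 6389.8 and 3081 in ischemic controls, with no overlap. Its log2 fold change was 1.02 (SE 0.73, adjusted p = 0.978, edgeR), with the highest value in control 2, one of the 4 libraries that stood apart. Reads of ZBTB22, which overlaps TAPBP in RefSeq, could not be told apart by strand, because the libraries are non-directional.

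CD74 (chr2:151402210-151409924) had the largest log2 fold change of the 8 members in this comparison. It was at 5395 and 6380.2 at baseline and at 10257, 35544 and 16499 in ischemic controls, a difference of 1.79 on the log2 scale (SE 0.94, adjusted p = 0.978, edgeR). Without control 2 the log2 fold change was 1.22, and without the 4 libraries it was 1.2 (SE 0.34, adjusted p = 0.29, edgeR). DESeq2 over the 5 baseline and control libraries alone gave 1.87 (SE 0.60) with an adjusted p of 0.0922, DESeq2 over all libraries an adjusted p of 0.759 and voom with quality weights one of 0.173.

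The 2 transporter genes lie next to each other on chromosome 7, TAP2 at 25045085 to 25056915 and TAP1 at 25062772 to 25071989. TAP1 was at 695 and 843 at baseline and at 526, 252 and 1062 in controls, so that controls lay on both sides of baseline. TAP2 was at 1098 and 916 against 725, 623 and 1231. Their log2 fold changes were -0.31 (SE 0.85) and -0.23 (SE 0.53), both with an adjusted p of 0.986 in edgeR's test.

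The DM genes and CIITA had control means close to those of baseline. SLA-DMA (chr7:25133494-25137928) had a baseline level of 355 ± 119 (SD, n = 2), and controls had 369.9 ± 76.5 (SD, n = 3). SLA-DMB (chr7:25119278-25125089) was at 393 ± 8.70 (SD, n = 2) and 407 ± 196 (SD, n = 3), and CIITA (chr3:32171706-32230775) was at 347 ± 175 (SD, n = 2) and 367 ± 157 (SD, n = 3). Their log2 fold changes were 0.06, 0.05 and 0.07, each with an SE of 0.43 to 0.64, and without baseline 1a SLA-DMA was at -0.24 and CIITA at -0.36. Both DM genes overlap BRD2 and CIITA overlaps DEXI in RefSeq, and these reads could not be assigned by strand either.

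Over the 8 members, 3 of 8 were higher in controls without overlap and 0 were lower. Among all genes tested, 15.2% were higher and 15.6% lower without overlap. The median log2 fold change was 0.39 for the 4 class I members and 0.07 for the 4 class II members, beside 0.00 over all genes. At an unadjusted p under 0.05 the test found 520 genes higher (3.16%) and 200 lower (1.21%), and 0 of the members. DESeq2 over all 13 libraries called 7 genes, and 0 of the members.

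**Figure D1:**
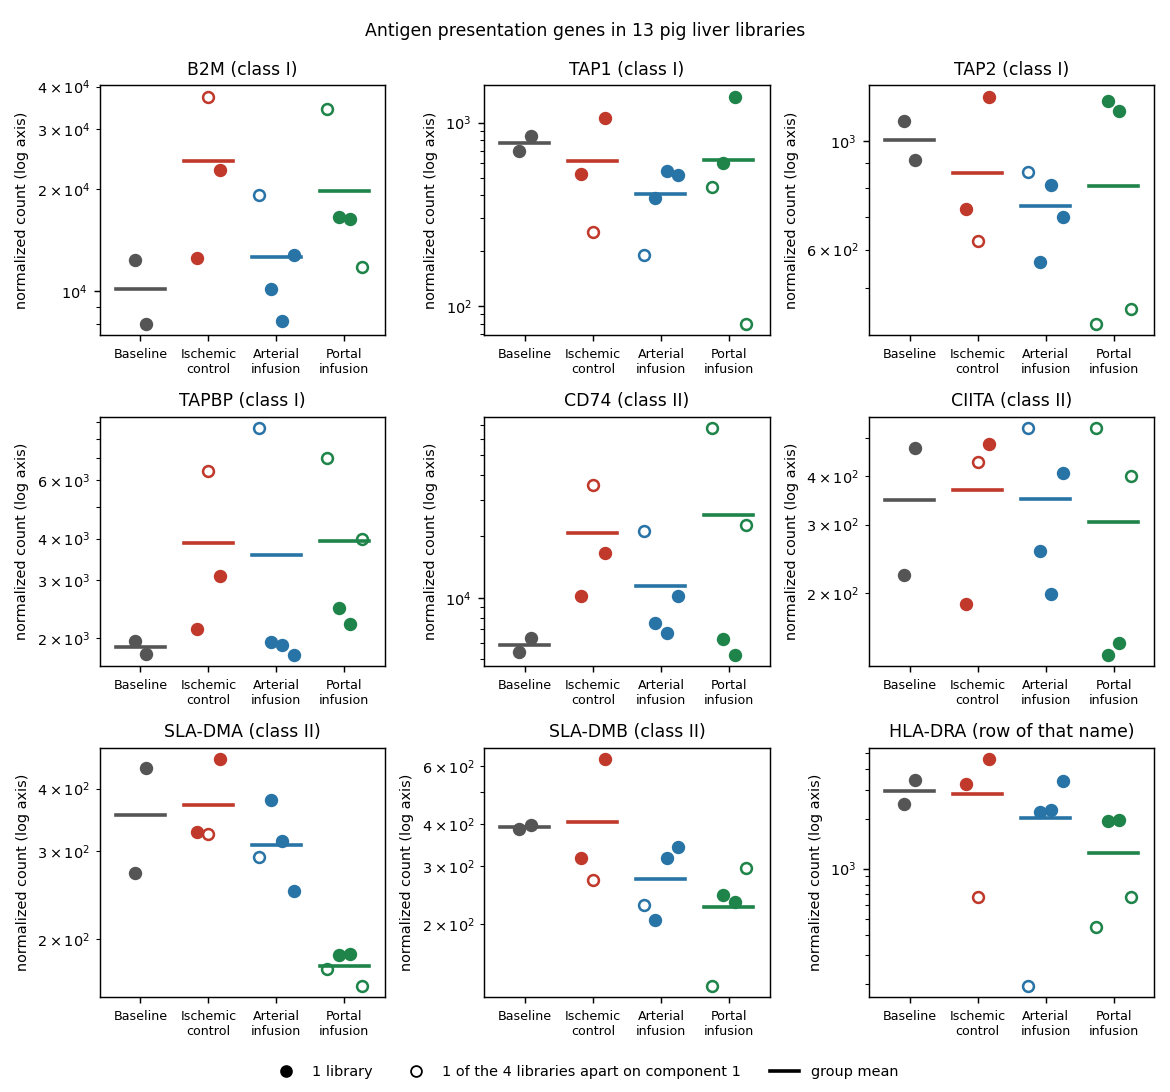
Normalized counts (log axis) of the 8 members and of the row named HLA-DRA in each of the 13 libraries, by group, with 1 point a library, a line at the group mean and open points for the 4 libraries that stood apart. Portal SLA-DMA lies between 161 and 187, below every other library, while CD74 and TAPBP are highest in the 4 libraries that stood apart.

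The second question was whether infused BM-MSCs went with other levels than ischemia and reperfusion alone. SLA-DMB, SLA-DMA and B2M were the members with the lowest log2 fold changes, at -0.74, -0.69 and -0.63. All 8 members had a log2 fold change below 0 in the 8 infused livers against the 3 ischemic controls, but 0 of 8 passed the adjusted test, as did 0% of all genes, and every member overlapped. Members without overlap would be read beside 0.206% of all genes higher and 0.407% lower, and there were 0.

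SLA-DMB was at 317, 271 and 631 in ischemic controls, and in the 8 infused livers the lowest, median and highest values were 129.6, 239 and 342. The difference was -0.74 (SE 0.37, adjusted p = 1, edgeR), and without control 3, which held the highest value, it was -0.29. SLA-DMA was at 328, 324 and 458 in controls and at a lowest, median and highest of 161, 218 and 379.8 after infusion, with a log2 fold change of -0.69 (SE 0.31, adjusted p = 1, edgeR). SLA-DMA was the 1 member with an unadjusted p under 0.05 (0.0417), beside 121 genes higher (0.734%) and 232 lower (1.41%), and DESeq2 called 1 gene, which was no member. Of all genes, 47.9% had a log2 fold change above 0.

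B2M ran from 8161 over a median of 14529 to 34251 in infused livers, and its log2 fold change of -0.63 (SE 0.40, adjusted p = 1, edgeR) was -0.22 without control 2. CD74 ran from 5246 over 8828 to 67879.9, a span wider than that of the 3 controls. The row named HLA-DRA was at 2439.8 and 3431 at baseline, at 3255, 672 and 4582 in controls, at 195, 2203, 2273 and 3380.4 in arterial and at 447, 1927, 1953 and 677 in portal livers, with a log2 fold change of -0.86 (SE 0.68, adjusted p = 1, edgeR) after infusion.

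The direction of several members rested on 1 control library. Without control 2, CD74 was at 0.27 and TAPBP at 0.46, and without control 3, TAP1 was at 0.35, TAP2 at 0.16 and CIITA at 0.0020. TAPBP, at -0.07 with all libraries, also lay above 0 without any 1 of arterial 2, 3 and 4 and portal 2 and 3. Without the 4 libraries the class I median was -0.25 and the class II median -0.78, with 0 members called.

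**Figure D2:**
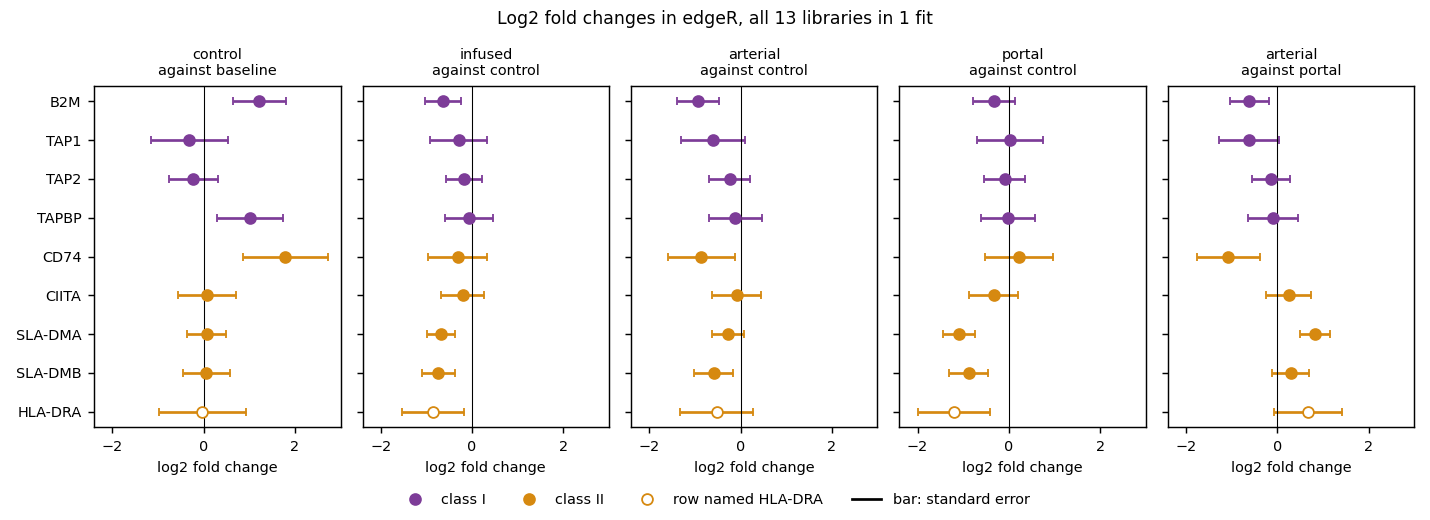
Log2 fold changes with their SE (edgeR) of the 8 members and HLA-DRA in 5 comparisons between groups, with class I in purple and class II in orange. The highest value is CD74 in ischemic controls against baseline (1.79), and SLA-DMA after portal infusion (-1.10) is the lowest of the members.

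Each infusion route was then compared with the same 3 ischemic controls, so the 2 comparisons share these libraries. SLA-DMA was lower after portal infusion than in any other library of the study, at 174, 186, 187 and 161, against 271 and 439 at baseline, 328, 324 and 458 in controls and 249 to 379.8 after arterial infusion. No other member showed such a gap after either route. The share of all genes with such a gap to every other library was not counted. After arterial infusion B2M and CD74 had the lowest log2 fold changes, at -0.94 and -0.86, and overlapped with controls.

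Portal SLA-DMA had a mean of 177 ± 12.2 (SD, n = 4) and controls 369.9 ± 76.5 (SD, n = 3). The log2 fold change was -1.10 (SE 0.36, adjusted p = 1, edgeR) and lay between -1.22 and -0.95 as each library was left out. It was -1.07 (SE 0.37, adjusted p = 0.47, edgeR) without the 4 libraries. DESeq2 over all libraries gave -1.07 with an adjusted p of 0.346, and voom with quality weights gave -1.09 with an adjusted p of 0.196. In this comparison 1 of 8 members was lower without overlap, beside 2.45% of all genes, and 0 of 8 were higher, beside 1.27%. The adjusted test called 0 of 8 members and 0% of all genes, and at an unadjusted p under 0.05 SLA-DMA (0.00781) was 1 of 273 genes lower (1.66%), with 187 genes higher (1.13%). DESeq2 over all libraries called 4 genes and 0 members.

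SLA-DMB, the partner chain, was at 129.6, 245, 233 and 294 after portal infusion. Portal 1, 2 and 3 lay below the lowest control (271) and portal 4 lay between the controls. Its log2 fold change was -0.88 (SE 0.43, adjusted p = 1, edgeR).

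CIITA split the portal group in pairs. Portal 2 and portal 3 were at 139 and 149, the lowest values of all 13 libraries, and portal 1 and portal 4 at 529 and 399.9. CD74 split along the same lines, at 67879.9 and 22657 in portal 1 and 4 and at 6247 and 5246 in portal 2 and 3. The group SDs were 192 for CIITA and 29354 for CD74, and portal 1 and 4 are among the libraries that stood apart.

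TAP1 was at 447, 602, 1381 and 79.7 after portal infusion, from the lowest value of the 13 libraries in portal 4 to the highest in portal 3. TAP2 was at 423, 1209, 1153 and 453, again with portal 2 and 3 above portal 1 and 4. B2M was at 34251, 16485, 16249.7 and 11785, and TAPBP at 7022, 2461, 2209 and 4002. Log2 fold changes of the class I members against controls were between -0.33 and 0.02.

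Set against control 1 and control 3, portal 2 and 3 had a class II median of -1.13, with all 4 class II members between -1.21 and -0.98. CD74 was at -1.21 (SE 0.34) and CIITA at -1.2 (SE 0.52), while HLA-DRA was at -1.0 (SE 0.33). The class I median was 0.096, with 2 members above and 2 below 0, and the median over all genes was -0.02. None of these passed the adjusted test, the members' adjusted p-values being between 0.414 and 0.947 (edgeR, without the 4 libraries).

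In arterial livers SLA-DMA was at 292, 379.8, 314 and 249 and SLA-DMB at 228, 206, 316 and 342. CIITA was at 530.0, 256, 199.6 and 407, and CD74 at 21295, 7501, 6728 and 10154. Among class I members, B2M was at 19138, 10157, 8161 and 12808, TAP1 at 189, 387, 543 and 518, TAP2 at 865, 566, 812 and 698, and TAPBP at 8654, 1947, 1909 and 1777. Arterial 1 had the highest CD74, B2M, TAPBP, CIITA and TAP2 of its group and the lowest TAP1. No member was free of overlap with controls, beside 1.46% of all genes higher and 1.68% lower, and 0 of 8 were called beside 0% of all genes. At an unadjusted p under 0.05 there were 103 genes higher (0.625%) and 155 lower (0.94%), with 0 members, and DESeq2 called 0 genes.

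Arterial against portal infusion compared the routes directly. SLA-DMA was higher after arterial infusion, with its lowest arterial value (249) above the highest portal value (187). The difference was 0.82 on the log2 scale (SE 0.33, adjusted p = 1, edgeR), and this was 1 of 8 members without overlap, beside 0.862% of all genes higher and 0.419% lower. CD74 differed by -1.08 (SE 0.69, adjusted p = 1, edgeR) over all libraries and by 0.48 (SE 0.31, adjusted p = 0.994, edgeR) without the 4 libraries. The class I median was -0.38 and the class II median 0.27, and without the 4 libraries they were -0.73 (4 of 4 below 0) and 0.61 (4 of 4 above 0). Over all genes they were 0.04 with all libraries and 0.04 without the 4, and 0 members were called beside 0% of all genes. At an unadjusted p under 0.05, SLA-DMA (0.0269) was 1 of 179 genes higher (1.09%), beside 217 lower (1.32%), and DESeq2 called 1 gene that was no member.

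All 11 livers at 6 h were also set against baseline. CD74 differed by 1.58 (SE 0.84), TAPBP by 0.97 (SE 0.64) and B2M by 0.79 (SE 0.50), each with an adjusted p of 0.86 in edgeR's test. The other 5 members lay between -0.51 and -0.06. No member was free of overlap, beside 3.25% of all genes higher and 3.8% lower, and 0 of 8 were called beside 0% of all genes. At an unadjusted p under 0.05 there were 469 genes higher (2.85%) and 318 lower (1.93%), with 0 members, and DESeq2 called 15 genes and 0 members.

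To weigh class I against class II within each library, the mean log2 level over baseline of the 4 class I members was taken from that of the 4 class II members. This class II minus class I value was -0.349 and 0.349 at baseline. The 2 values are equal and opposite because levels were taken relative to the baseline mean. They show only how far these 2 libraries lay from each other, and do not estimate a spread without treatment. Ischemic controls were at 0.0327, 0.249 and 0.119, and arterial livers at 0.153, 0.237, 0.0278 and 0.312. These 7 lay between the 2 baseline values.

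Portal livers were at -0.00047, -0.932, -1.22 and 0.946. Portal 2 and 3 lay below every other library and portal 4 above every other library, with portal 1 between the 2 baseline values. The group median of -0.466 therefore stands for no library in particular. The means of 4 genes also join opposite moves. On the log2 scale over baseline, portal 1 had CD74 at 3.39 and SLA-DMB at -1.73. Portal 4 had TAP1 at -3.31 and TAPBP at 1.01. Class II over class I, as a ratio of summed CPM in the same library, was 0.328 and 0.277 in portal 2 and 3 and 1.63 and 1.44 in portal 1 and 4, against 0.39 to 0.82 in the other 9. CD74 and B2M make up most of these sums.

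**Figure D3:**
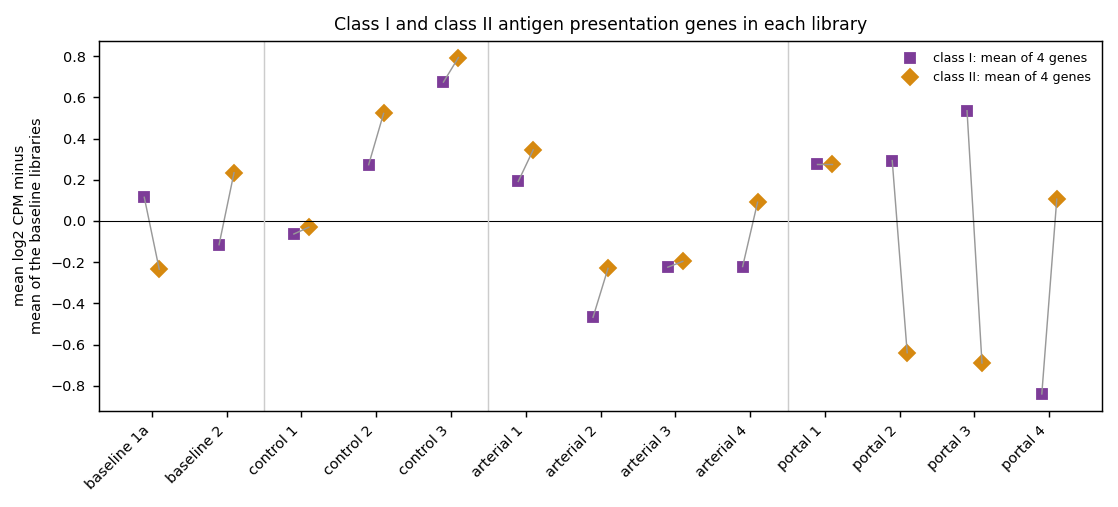
Mean log2 CPM of the 4 class I members (squares) and the 4 class II members (diamonds) minus the mean of the baseline libraries, for each of the 13 libraries, joined by a line. Class II minus class I lies between -0.349 and 0.349 in baseline, control and arterial libraries, and between -1.22 and 0.946 in portal libraries.

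Members of 1 pathway did not keep step in the 4 libraries that stood apart. CD74 was between 21295 and 67879.9 in them and between 5246 and 16499 in the other 9, and TAPBP was between 4002 and 8654 against 1777 to 3081. HLA-DRA was between 195 and 677 in the 4 and between 1927 and 4582 in the other 9. The other 6 members overlapped. As a description, 2 of 8 members were higher and 0 lower without overlap, beside 7.83% of all genes higher and 11.5% lower. Summed hepatocyte markers were at 33700 to 65800 CPM in the 4 libraries. This was below the 75800 to 128000 in the other 7 livers at 6 h and the 73600 to 138000 at baseline. The single markers did not move together. Against the other 9 libraries, TF and FGB were lower without overlap, 5 of the 8 overlapped, and APOA1 was higher. APOA1 was at 173161 to 339063 in the 4 libraries and at 76074.5 to 139116 in the other 9. The part of hepatocyte markers in the values of the members was not tested.

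Ratios of 2 genes within a library do not depend on the scaling between libraries. The count of CD74 over that of HLA-DRA was 52.9 in control 2, 109 in arterial 1, 152 in portal 1 and 33.5 in portal 4, and between 1.86 and 3.6 in the other 9 libraries. The count of TAPBP over that of TAP1, whose products work in the same loading complex, was between 15.7 and 50.2 in the 4 libraries and between 1.6 and 5.03 in the other 9. Each group at 6 h had libraries on both sides. CD74 lay wholly higher and HLA-DRA wholly lower in the 4 libraries, so their ratio had to part them and is no separate evidence. TAPBP also lay wholly higher in them, while TAP1 overlapped. Neither ratio was among the planned descriptions.

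Over the 9 other libraries CD74 and HLA-DRA had a Pearson r of 0.816 on log2 CPM, and over all 13 it was -0.695. CIITA and HLA-DRA had 0.818 over 9 and -0.404 over 13, and SLA-DMB and HLA-DRA 0.849 and 0.683. In class I, TAP1 and TAP2 had 0.789 and 0.707, and B2M and TAPBP 0.859 and 0.747. The other class I pairs were lower, and below 0 over 13. TAP1 and TAPBP had 0.484 and -0.566, and TAP2 and TAPBP 0.661 and -0.392. B2M had 0.504 and -0.079 with TAP1, and 0.62 and -0.135 with TAP2. Across the classes, TAPBP and CD74 had 0.498 and 0.851. These are descriptions over libraries of 4 groups that differ in depth and treatment.

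**Figure D4:**
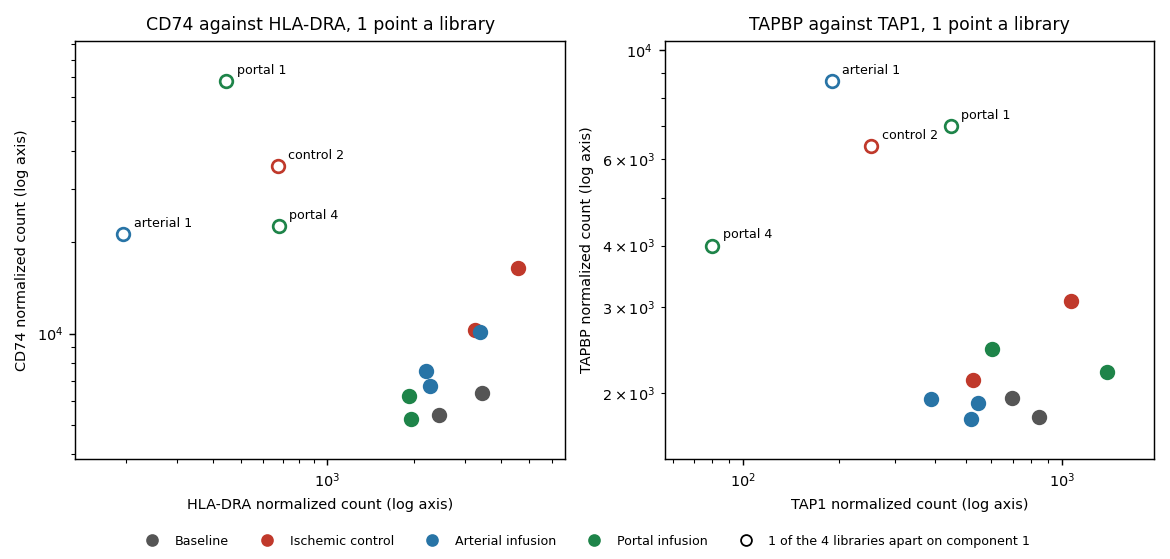
CD74 against HLA-DRA and TAPBP against TAP1, as normalized counts on log axes, with 1 point for each of the 13 libraries. In the 4 libraries that stood apart the CD74 to HLA-DRA count ratio is 33.5 to 152, against 1.86 to 3.6 in the other 9.

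The wider pathways were read from fixed lists. Of 17 class I pathway genes 10 were in the table, since 7 SLA heavy chain symbols had no row, and of 13 class II pathway genes 10 were. In ischemic controls against baseline, 0 of 10 and 0 of 10 passed the adjusted test in either direction. Of the class I genes 9 lay above 0 with a median log2 fold change of 0.49, and of the class II genes 8 lay above 0 with a median of 0.22, beside 50.2% of all genes above 0.

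PSME2 and PSMB10, subunits of the proteasome activator and the immunoproteasome that cut class I peptides, had log2 fold changes of 2.36 (SE 1.18) and 1.19 (SE 0.93). PSME2 was at 123 and 137 at baseline and at 220, 1583 and 278 in controls, so it did not overlap, and control 2 was far above the other 2 controls. PSMB8, another immunoproteasome subunit, was at 0.80 (SE 0.58) and ERAP1, which trims peptides, at -0.88 (SE 0.86). In the 4 libraries that stood apart PSMB10 was between 3070 and 5608 and PSME2 between 551 and 2370, above all others (519 to 957 and 123 to 320). These were the 2 of 10 class I genes higher there without overlap, with 0 of 10 in the class II list, beside 7.83% of all genes.

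Among class II genes IFI30, an endosomal thiol reductase, was at 444 and 411 at baseline and 585, 1184 and 1015 in controls, with a log2 fold change of 1.10 (SE 0.51, adjusted p = 0.978, edgeR). RFX5, a factor that binds class II promoters, was at -0.62 (SE 0.63). SLA-DQB1, a class II beta chain, was at 0.56 (SE 0.48), and SLA-DOA, a modulator of DM, at 0.56 (SE 1.46). After infusion the class II list had a median of -0.28 against controls, with 8 of 10 below 0, and the class I list 0.01, with 0 of 20 called.

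Interferon gamma induces both pathways. Of 13 genes of this response 12 passed the filter, and the interferon gene IFNG did not. The median log2 fold change in controls against baseline was -0.04, with 6 genes above and 6 below 0 and 0 called. GBP1, an interferon-induced GTPase, was at 2530.1 and 4580.5 at baseline and at 1114, 618 and 2509 in controls, and differed by -1.32 (SE 0.66). The feedback inhibitor SOCS1 was at 1.08 (SE 0.54) and the kinase JAK2 at -0.79 (SE 0.59). The median after infusion was again -0.04, with 5 genes above and 7 below 0, and 0 called.

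In the 4 libraries that stood apart CTSB, an endosomal protease, was between 629 and 1722 against 3752 to 14726 in the other 9, and CANX, a chaperone of class I heavy chains, was between 4458 and 7622 against 8408 to 12809.5. They were the 1 of 10 class II genes and the 1 of 10 class I genes lower there without overlap, beside 11.5% of all genes. CTSB and CANX were picked after their values were seen.

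In all, 9 genes of co-stimulation and T cell co-receptors were tested, and 0 were called in any comparison. In controls against baseline 7 lay above 0, with a median of 0.68. LAG3, a receptor that binds class II, was at 1.65 (SE 1.70), CD80, a ligand on presenting cells, at 1.16 (SE 0.86), CD28, its T cell receptor, at 1.08 (SE 2.25), and CD8B, a class I co-receptor chain, at 0.84 (SE 1.11). The median after infusion was 0.13. CD28 had a count of 0 in the 4 libraries that stood apart, which allows up to 3 counts each. In the others its normalized count was 1.6 to 29.3, so it was near the floor in some of them too. LAG3 was higher in the 4 libraries, at 29.8 to 172 against 0 to 24.1. These were 1 gene lower and 1 higher without overlap, and 7 overlapped, beside 11.5% of all genes lower and 7.83% higher.

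**Figure D5:**
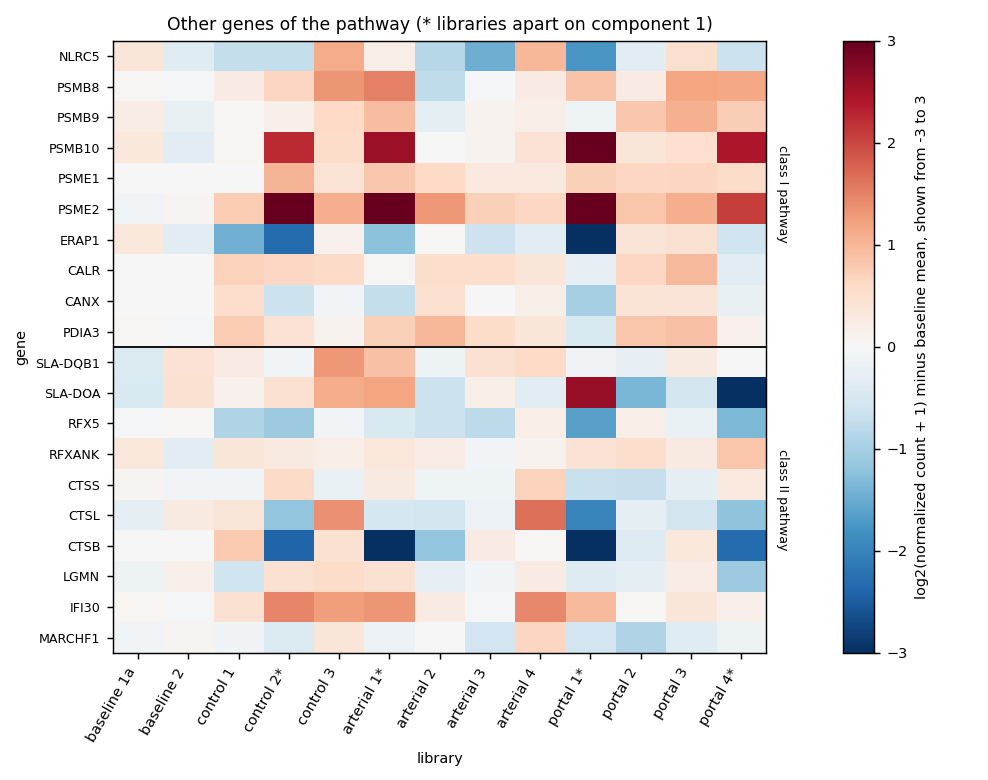
Colour gives log2(normalized count + 1) minus the baseline mean, shown from -3 to 3, for each class I and class II pathway gene (vertical) in each library (horizontal), with stars at the 4 libraries that stood apart. PSMB10 and PSME2 are high and CTSB low in control 2, arterial 1, portal 1 and portal 4. Among all genes tested, 7.83% were higher and 11.5% lower in these 4 libraries without overlap.

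Cells that carry class II were read from their markers. Summed CPM of the 9 macrophage and Kupffer cell markers measured was 2340 to 4910 in ischemic controls, 1370 to 2010 at baseline, 1550 to 1940 in arterial and 1690 to 1940 in portal livers. The controls were thus above all other libraries in this sum, but not in each marker. Against baseline 4 of the 9 markers were higher in controls without overlap, beside 15.2% of all genes. CD163 (-0.08) and TIMD4 (-0.26) had log2 fold changes below 0. After infusion 8 of the 9 lay below 0 against controls (median -0.82, 0 called), and MARCO was at 1.46. Of the 9, 5 were lower at an unadjusted p under 0.05 (edgeR), beside 1.41% of all genes. TIMD4 was the 1 macrophage marker at 0, in portal 1. Their part in the values of CD74, B2M and the DM genes was not tested.

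Lymphoid and neutrophil markers were lower in sum. Dendritic cell markers (8) summed to 42.7 to 51.6 CPM at baseline, 38.5 to 47.2 in controls, 35.1 to 50.7 in arterial and 31.9 to 76.3 in portal livers, and B cell markers (7) to 15.3 to 22.7, 10.3 to 22.5, 11.8 to 38 and 20.6 to 36.7. T and NK cell markers (7) were at 30.0 to 31.6, 22.9 to 75.9, 36.2 to 66.8 and 36.8 to 114 in the same order, so both infused groups lay above baseline. Neutrophil markers (4) were at 35.6 to 40.6 at baseline, 52.3 to 408 in controls, 26.1 to 302 in arterial and 28.7 to 115 in portal livers, and controls lay above baseline without overlap.

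Sinusoidal endothelium markers (6) were at 517 to 572 at baseline, 279 to 493 in controls, 266 to 662 in arterial and 247 to 338 in portal livers. Stellate and stromal markers (7) were at 439.7 to 726, 281 to 1390, 177 to 1036 and 118 to 397 in that order, and cholangiocyte markers (5) lay between 10.3 and 42.3 in all groups. Up to 2 markers of the dendritic, B, T and NK, cholangiocyte or stromal lists were at 0 in a library, and their part in the results was not tested.

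Genes whose pattern was most like the mean standardised profile of the class I members over 13 libraries included VAT1 (Pearson r = 0.852), SCARA3 (0.844), a gene known only by its identifier (0.819) and TMEM109 (0.816). For the class II members they were DLL4 (0.87), ADGRG1 (0.858), SLC35E2B (0.854), LHFPL6 (0.834) and UPP2 (0.812). The members' own r with the profile was between 0.369 (TAPBP) and 0.717 (B2M) in class I and between 0.403 (CD74) and 0.799 (CIITA) in class II. The non-member genes named are among the 5 highest of all tested for each profile, and the libraries differ in depth.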

How the data were processed

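The authors removed reads with adapters or low quality, used HISAT2 to align what remained to Sscrofa11.1, counted reads per gene with FeatureCounts and deposited raw counts, without normalization, of 35670 genes in 13 libraries. Tool versions, strand setting and treatment of multi-mapping reads are not given in the sources used here, and SLA alleles vary, so reads of another allele can be lost. Groups and replicate numbers came from the labels, and 0 columns were without a sample. No replicate pair was a copy (smallest chi-square per gene 72.1). Coordinates are RefSeq's for Sscrofa11.1, matched by symbol.

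Members, gene lists and tests were chosen with earlier results of these data known. The rule named all members, and up to 4 genes of each list by the size of the log2 fold change in controls against baseline.

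In R 4.3.3, edgeR 4.0.16 (filterByExpr, TMM, quasi-likelihood, Benjamini-Hochberg, threshold 0.05) fitted all 13 libraries together over 16481 genes and was tested on simulated data. DESeq2 1.42.0 gave size factors, the variance stabilizing transformation for the principal component and an alternative test. limma 3.58.1 gave voom with quality weights. Log2 CPM used a prior count of 2. Alternatives were RLE and upper quartile factors, no filter or at least 10 counts in every library, edgeR or DESeq2 over the groups compared, mitochondrial and small RNA genes left out (1836 genes), the replicate number as a block, and libraries left out. Counts are reads without molecular identifiers, so limits cover counting error only. Member counts ran from 65 (TAP1, portal 4) to 53934 (CD74, portal 1). Sequences of promoters and proteins were not used here, and some genes that the rule names are not reported here.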

Additional observations from a re-analysis of the deposited data

Results flagged for a closer look

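TAPBP in arterial 1 had a normalized count of 8654.03, while the other 3 arterial livers were at 1947, 1909 and 1777. The gap to the nearest of them, divided by the range of the group, was above Dixon's critical value for 4 samples. The test was made in 18 combinations of a gene and a group of 4, and chance marks about 1 in 20. Arterial 1 also held the highest CD74 of its group (21295).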

How the results depend on the processing

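In the 6 comparisons 0 members were called under every alternative run, as counts of members past the threshold, each library left out included. Over all genes, leaving out the low-count filter gave 30, 19, 11, 14, 5 and 28 calls in controls against baseline, infused, arterial and portal livers against controls, arterial against portal and 6 h against baseline, DESeq2 over the groups compared called 168 in controls against baseline, and voom called 111 in 6 h against baseline. The balance of class II minus class I moved by at most 0.0046 with DESeq2 size factors. Single log2 fold changes below the threshold changed sign 27 times of 500. In controls against baseline these were SLA-DMB at -0.0038 without mitochondrial and small RNA genes and at -0.27 with the replicate block, and HLA-DRA at 0.12 with voom. In infused against controls, TAP1 was at 0.057 and TAP2 at 0.13 without portal 1 and 4. Without the 4 libraries that stood apart, an alternative chosen after seeing the data, TAP1 was at 0.058, CIITA at -0.035 and HLA-DRA at 0.43 in controls against baseline. The cause was not tested.

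Leaving out each library in turn gave, in controls against baseline, SLA-DMA -0.24 to 0.41, SLA-DMB -0.39 to 0.30, CIITA -0.36 to 0.66, HLA-DRA -0.55 to 0.45, TAP1 -0.95 to 0.077, TAP2 -0.56 to -0.013, B2M 0.82 to 1.58, TAPBP 0.51 to 1.29 and CD74 1.22 to 2.10. The ends of these ranges came from leaving out control 1, 2 or 3 or a baseline library. In infused against controls the ranges were TAPBP -0.53 to 0.46, CD74 -0.87 to 0.27, TAP1 -0.68 to 0.35, TAP2 -0.38 to 0.16 and CIITA -0.51 to 0.0020, with ends from control 1, 2 or 3, arterial 1 or portal 1.

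With the replicate number as a block, 0 members were called. Whether the numbers pair the libraries is not known. Of 16 pairs with the same number 5 had correlated deviations over 0.1, and 5 of 13 libraries correlated best with a library of the same number. These counts cannot decide it, because the 2 baseline libraries deviate from their own mean by equal and opposite amounts. The groups hold 2 to 4 libraries each, and every member had at least 65 counts in every library.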
